A study of Mus musculus with 2 samples.

Results

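MHC-II-low C1q macrophages are tumour macrophages that carry the RNA of complement component C1q and little RNA of the major histocompatibility complex class II (MHC-II). They numbered 981 of 34471 cells kept from subcutaneous mouse tumours, 356 in the serine/glycine-free library and 625 in the control library. A kept cell had at least 500 unique molecular identifiers (UMIs, tags that each mark one captured RNA molecule), at least 300 genes and at most 20% of its UMIs from mitochondrial genes. A member had at least 3 UMIs of C1qa, C1qb and C1qc together and at least 10 of them per 10000 UMIs of the cell. It had at most 3 UMIs of Hmga2 and Rhox5, which mark the presumed tumour cells, and none of the T cell gene Cd3e. Its H2-Aa, H2-Ab1 and H2-Eb1 UMIs, which encode MHC-II chains, stood under 20 per 10000. The members were thus chosen by the measured UMIs of these genes, so their levels are given below as a description only. Cells that met the C1q conditions but reached 20 MHC-II UMIs per 10000 are called MHC-II-high, and numbered 941 and 366.

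One tumour library came from mice fed a diet without serine and glycine (titled SG), and 1 from mice fed a control diet (titled CT). The design text names both diets and the titles were read from it. Strain, genotype, age, tumour line, number of mice per library and length of feeding were not stated in the labels, and the protocol text speaks of human heart tissue and of CM cells, against the mouse tumour of the labels. With 1 library a diet there is no replicate check, so no test was possible, and every interval below is 95% and covers counting error only.

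Macrophages in tissue are the main local source of C1q, the protein that starts the classical complement pathway and tags debris for uptake. MHC-II molecules show peptides to CD4 T cells, and interferon-gamma induces them in macrophages. Long-lived tissue macrophages often combine low MHC-II with scavenger receptors such as the mannose receptor Mrc1, the hyaluronan receptor Lyve1 and the haemoglobin receptor Cd163. Names such as resident-type refer here to these genes and not to where a cell came from.

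The members made up a smaller part of the C1q macrophages under the serine/glycine-free diet. They were 27.4% (25.03 to 29.96) of 1297 C1q macrophages in the serine/glycine-free library and 63.1% (59.98 to 66.1) of 991 in the control library, a ratio of 0.435 (0.394 to 0.481). Of all kept cells they were 1.75% (1.58 to 1.94) under the serine/glycine-free diet, against 4.41% (4.08 to 4.77) under the control diet. C1q macrophages of any MHC-II level were nearer to each other, at 6.39% of kept cells in the serine/glycine-free library and 6.999% in the control library. Median depth was 3768 UMIs per member in the serine/glycine-free library and 5361 in the control library. After thinning every cell to 2000 UMIs before the gate, the shares among C1q macrophages were 27.9% and 62.1%.

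MHC-II was spread within the members too. No MHC-II UMI was seen in 103 serine/glycine-free and 304 control members, and the median MHC-II level was 4.46 and 1.04 per 10000 UMIs. H2-Aa stood at 250 CPM (a gene's UMIs summed over the cells of a class and scaled to the UMIs of all genes in them) in serine/glycine-free members and 136 CPM in control members, against 5755 and 4134 CPM in MHC-II-high cells. Members therefore sat nearer to the limit in the serine/glycine-free library. The 44 serine/glycine-free and 33 control cells just inside the limit, at 15 to 20 per 10000, had 1355 and 1460 CPM of Mrc1. The 27 and 20 cells just outside it, at 20 to 25 per 10000, had 1143 and 1612 CPM.

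**Figure D1:**
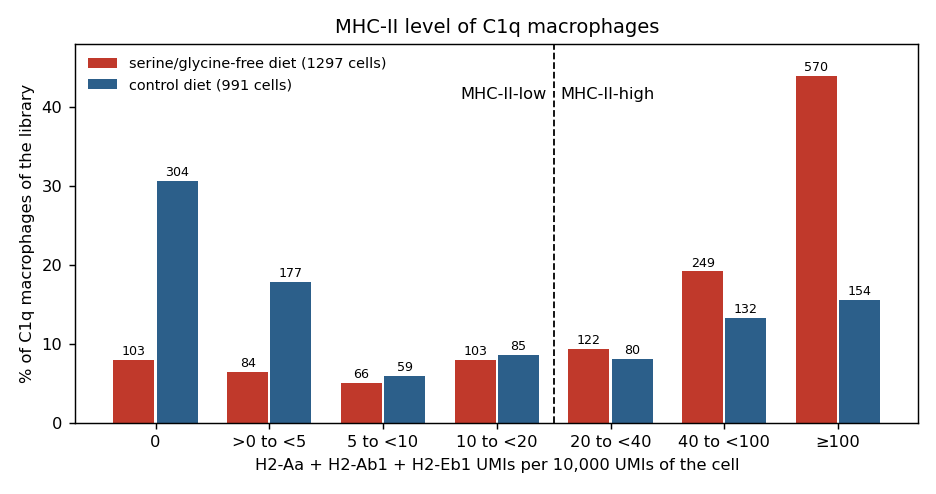
Share of each library's C1q macrophages (vertical axis, %) in 7 bins of MHC-II level (horizontal axis, UMIs per 10000), serine/glycine-free in red and control in blue, with the number of cells above each bar. The dashed line is the limit of 20. The bin at 0 holds 103 serine/glycine-free and 304 control cells, and the bin at 100 or more holds 570 and 154.

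Macrophage genes that the rule did not use were present in the members. Apoe, a lipid carrier of macrophages, stood at 11487 CPM in serine/glycine-free members and 13644 CPM in control members. With each cell thinned to 2000 UMIs, Mrc1 was detected in 83.5% of 309 serine/glycine-free members and 84.3% of 575 control members (88.5% and 91.2% before thinning). T cells, which lack Mrc1, gave 0.789% and 2.62% at that depth, and C1q-low Lyz2 cells (myeloid cells below the C1q limit) gave 30.5% and 29.9%. Ccl8 was detected in 58.9% and 50.1% of thinned members (69.4% and 60.5% before thinning), against 5.26% and 3.66% of thinned T cells. All 16 core macrophage genes were measured, among them the growth factor receptor gene Csf1r at 320 and 371 CPM and Adgre1 at 278 and 261 CPM. The MHC-II partner Cd74, also outside the rule, was at 1152 and 819 CPM in members and 9618 and 7951 CPM in MHC-II-high cells.

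RNA of other cells was present and differed between the libraries. Hmga2 and Rhox5 summed to 91.4 CPM in serine/glycine-free members and 56.2 CPM in control members, which equals 3.26% and 2.02% of the level in presumed tumour cells. The member rule capped these 2 genes, so their level was limited by the choice of cells and gives no bound on tumour RNA. Fibroblast markers (8 genes) summed to 71.4 and 299 CPM, with 925 UMIs in 1 control cell, and NK cell markers (8 genes) to 145 and 30.4 CPM, with 144 UMIs in 1 serine/glycine-free cell. T cell markers (11 genes) summed to 94.3 and 12.5 CPM, neutrophil markers (8) to 146 and 94.98, B and plasma cell markers (9) to 131 and 75.6, and haemoglobin and other erythroid markers (5) to 54.98 and 10.7. Dendritic cell markers (10) were at 189 and 201 CPM, endothelial markers (8) at 43.6 and 39.7 CPM, and mast cell and basophil markers (6) at 0 and 0.290 CPM. Scrublet, a doublet caller run per library, marked 6 and 5 members. Of the 79 barcodes of kept cells that occur in both libraries, 0 serine/glycine-free and 2 control members carry one. The part of these RNAs in the diet ratios was not tested beyond the alternatives given with them.

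Members and MHC-II-high cells were compared within each library, and a gene was counted when it passed 1.5-fold in both. Of 6073 genes with at least 100 UMIs over both classes in each library, 83 (1.37%) were at least 1.5 times higher in members in both libraries and 97 (1.6%) at least 1.5 times lower. The resident-type list held 25 genes, of which 19 could be compared: 11 were higher in members in both libraries and 0 lower. Its median log2 ratio of members over MHC-II-high cells was 0.69 in the serine/glycine-free library and 0.91 in the control library. The split was made by MHC-II, so these counts describe the classes and test nothing.

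Genes of several kinds were higher in members. Lyve1 stood at 131 CPM in serine/glycine-free members and 142 CPM in control members, and at 17.9 and 29.3 CPM in MHC-II-high cells. F13a1, the coagulation factor XIII A chain made by macrophages, was at 943 and 804 CPM in members and at 276 and 235 CPM in MHC-II-high cells. Ednrb, an endothelin receptor gene, was at 81.4 and 49.8 CPM in members and at 14.4 and 3.95 CPM in MHC-II-high cells. Each of these was higher in members of both libraries. Cbr2, a carbonyl reductase, was at 208 and 160 CPM in members and at 53.8 and 56.4 CPM in MHC-II-high cells. Npl, which breaks down sialic acid, was at 126 and 121 CPM in members against 39.7 and 41.8 CPM. Pdpn, the podoplanin gene, was at 97.1 and 76.2 CPM in members against 32.5 and 23.1 CPM.

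Some chemokine genes were higher in members and others lower. Ccl2, a ligand of the monocyte receptor Ccr2, was at 2658 CPM in serine/glycine-free members and 3115 CPM in control members, and at 1006 and 894 CPM in MHC-II-high cells. Ccl7, another Ccr2 ligand, was at 1460 and 1364 CPM in members and at 653 and 599 CPM in MHC-II-high cells. Both were thus higher in members. Cxcl9, an interferon-gamma-induced ligand of the chemokine receptor Cxcr3, ran the other way at 486 and 424 CPM in members and 1413 and 949 CPM in MHC-II-high cells. Of the 17 chemokine genes compared, 6 were higher in members in both libraries and 2 lower. The others did not pass 1.5-fold in the same direction in both libraries. Among all genes compared 1.37% were higher and 1.6% lower.

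MHC-II pathway genes were lower in members, and the interferon-gamma list had a median below 0 in both libraries. All 5 MHC-II pathway genes outside the rule that could be compared were lower in both libraries, with H2-DMb1, a chain of the peptide-loading factor H2-DM, at 55.7 and 38.8 CPM in members and 629 and 564 CPM in MHC-II-high cells. Among 26 interferon-gamma genes 0 were higher and 4 lower, with list medians of -0.63 and -0.39. Of all genes compared 1.37% were higher in both libraries and 1.6% lower. The complement gene C3 was at 54.3 and 64.3 CPM in members and 286 and 162 CPM in MHC-II-high cells. Calhm6, an interferon-induced channel gene, was at 37.8 and 32.1 CPM in members against 161 and 78.5 CPM.

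**Figure D2:**
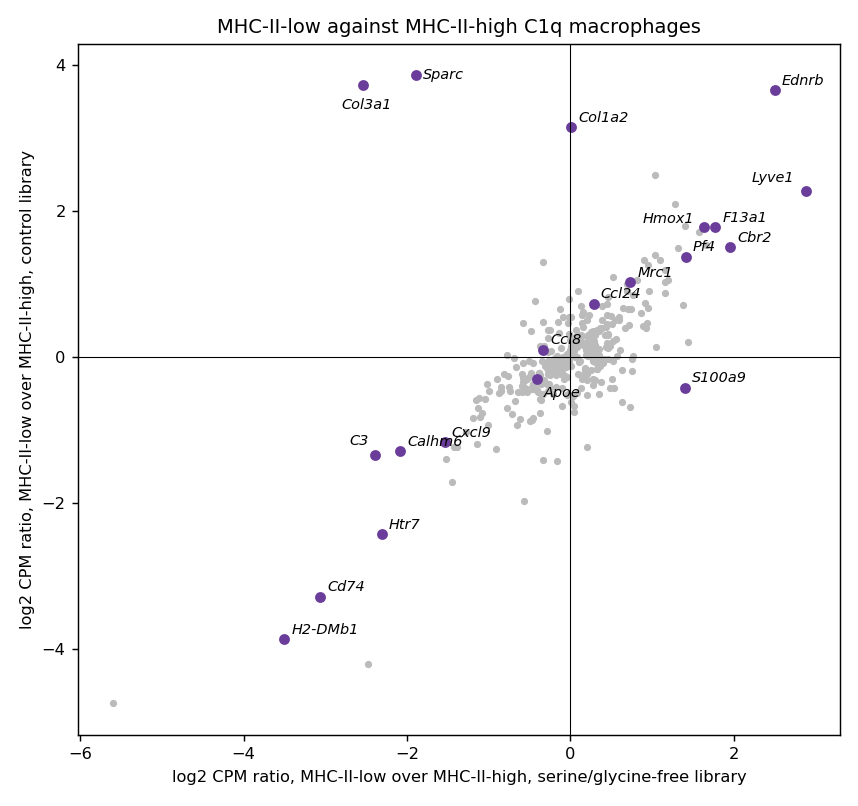
Log2 ratio of CPM in MHC-II-low members over MHC-II-high C1q macrophages in the serine/glycine-free library (horizontal) and the control library (vertical) for 339 list and named genes with at least 100 UMIs over both classes in each library. Points are genes and the purple ones carry names. Lyve1, F13a1 and Cbr2 lie at the upper right and Cd74 and H2-DMb1 at the lower left, while Col3a1 and Sparc lie high in the control library alone.

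Levels differed across the whole MHC-II range and not only at the limit. Over 7 bins of MHC-II level, Mrc1 ran between 2349 CPM in the lowest and 1026 CPM in the highest bin of the serine/glycine-free library, and between 2742 and 789 CPM in the control library. F13a1 ran between 1239 and 198 CPM in the serine/glycine-free library and between 1002 and 124 CPM in the control library. Ccl8 did not follow this order, with 2321 CPM in the lowest and 2945 CPM in the highest bin under the serine/glycine-free diet and 1697 and 1477 CPM under the control diet. Over the 14 points (7 bins in each library) the genes whose CPM ran most like Mrc1, among 5964 compared, were Stab1 (Pearson r 0.97), Nxpe5 (0.96), F13a1 (0.94), Eps15 (0.93) and Gas6 (0.92). These points share 2 libraries and the same bins, so the values describe likeness only. Stab1 encodes a scavenger receptor and Gas6 a ligand of the Axl and Mertk receptors.

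**Figure D3:**
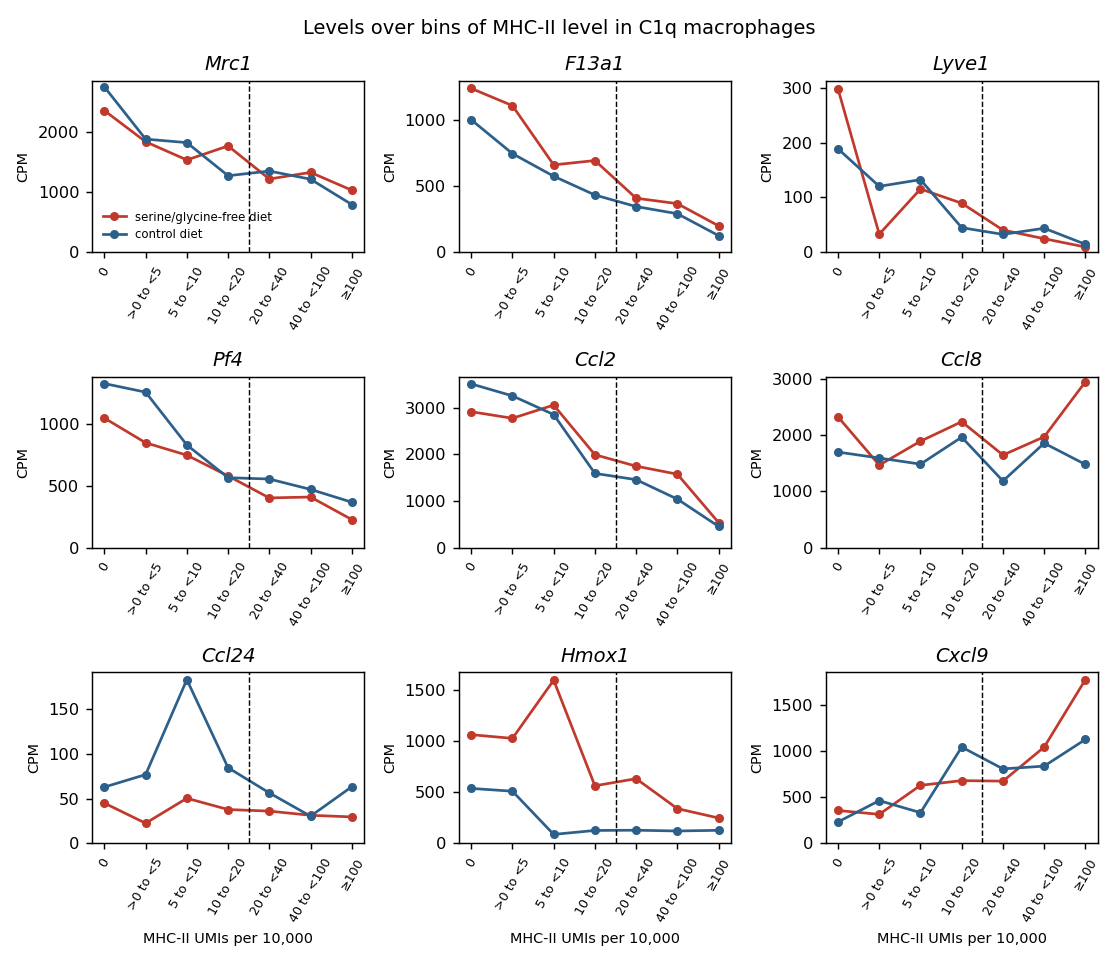
Level (vertical axis, CPM, from 0) of 9 genes over 7 bins of MHC-II level (horizontal axis, UMIs per 10000) in C1q macrophages, serine/glycine-free in red and control in blue. Points are sums over the cells of a bin and the dashed line is the limit of 20. Hmox1 is higher in the serine/glycine-free library in 7 of 7 bins, and Mrc1 and F13a1 are lower toward high MHC-II in both libraries.

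A subset of members carried Lyve1 RNA and differed from the rest in several resident-type genes, but not in all. At least 1 Lyve1 UMI was found in 46 of 356 serine/glycine-free members (12.9%) and 86 of 625 control members (13.8%). At 2000 UMIs per cell the shares were 10.4% and 9.74%, with 0 of 380 and 0 of 191 T cells, which by a floor of 3 cells allows up to 0.789% and 1.57%. Members with Lyve1 RNA were deeper, with medians of 4662 and 6774 UMIs against 3644 and 5211 in members without. CPM does not scale with depth, but a deeper cell is more likely to show a Lyve1 UMI.

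Ccl8 was at 4462 CPM in serine/glycine-free and 5084 CPM in control members with Lyve1 RNA, and at 1520 and 1003 CPM in members without. Mrc1 was at 3200 and 4009 CPM with Lyve1 RNA and at 1647 and 1820 CPM without. Cd209f, a C-type lectin gene, was at 140 and 82.4 CPM with Lyve1 RNA and at 7.59 and 2.43 CPM without. All 3 were higher in the Lyve1 members of both libraries. Cd209f shares 39.7% of its 31-base words near the transcript end with Cd209g, so reads may have been split between them. Cx3cr1, the fractalkine receptor gene, ran the other way at 9.34 and 29.8 CPM with Lyve1 RNA and 57.3 and 101 CPM without. Pf4, a platelet chemokine gene that macrophages also express, was at 1028 and 940 CPM with Lyve1 RNA and 771 and 1207 CPM without, so its order differed between the libraries. Mgl2 also differed in order, at 37.4 and 40.3 CPM with Lyve1 RNA and 29.5 and 114 CPM without. Ccl24 was at 88.8 and 89.4 CPM with Lyve1 RNA and 28.7 and 79.8 CPM without, so in the control library it was nearly level.

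Between the diets, most resident-type genes in the members were inside the 1.5-fold limit. Of 6265 genes with at least 100 UMIs over the members of both libraries, 138 (2.2%) were at least 1.5 times higher in the serine/glycine-free members and 229 (3.66%) at least 1.5 times lower, together 367 (5.86%). Of the 25 resident-type genes 21 passed the UMI limit, 3 of them higher and 2 lower. Their median log2 ratio was 0.02, against -0.03 over all genes tested. With each cell weighted equally the median was 0.20, with 6 higher and 3 lower, and over all C1q macrophages it was -0.35, with 0 higher and 6 lower, so its sign depends on the setting. The 4 below the limit were Cd209d, Cd209f, Retnla and Timd4.

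Mrc1 (chr2:14229414-14332023, GRCm38) was at 1884 CPM in serine/glycine-free members, from 2639 UMIs, and at 2181 CPM in control members, from 7533 UMIs. The log2 ratio was -0.21 (-0.28 to -0.15), inside the 1.5-fold limit. Over single members it ran from 0 over a median of 13.9 to 111 per 10000 UMIs in the serine/glycine-free library, and from 0 over 14.8 to 298 in the control library, so the cells of both diets overlapped widely. In MHC-II-high cells Mrc1 was at 1137 and 1069 CPM, a log2 ratio of 0.09. The members' log2 ratio minus that of MHC-II-high cells was -0.30 (-0.40 to -0.20). Within the 4 bins below the limit Mrc1 was higher under the serine/glycine-free diet in 1 and lower in 3.

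Ccl8 (chr11:82115185-82116799), a chemokine of tissue macrophages, was at 1969 CPM in serine/glycine-free members and 1677 CPM in control members, a log2 ratio of 0.23 (0.17 to 0.30). MHC-II-high cells had 2481 CPM in the serine/glycine-free library and 1562 CPM in the control library, a log2 ratio of 0.67. The members' log2 ratio minus that of MHC-II-high cells was -0.44 (-0.53 to -0.35). Ccl8 was uneven among members, with medians of 6.08 and 2.88 and highest values of 378 and 254 per 10000 UMIs. The log2 ratio was 0.11 with members of at least 2000 UMIs and 0.43 with each cell weighted equally.

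Ccl24 (chr5:135569935-135573123), an eosinophil-attracting chemokine also called eotaxin-2, was past the limit. It was at 37.8 CPM in serine/glycine-free members, from 53 UMIs in 36 cells, and at 81.4 CPM in control members, from 281 UMIs in 121 cells, a log2 ratio of -1.10 (-1.56 to -0.68). At 2000 UMIs per cell it was detected in 6.15% of serine/glycine-free and 10.8% of control members, against 0 of 380 and 1 of 191 T cells. In MHC-II-high cells it was at 31.1 and 49.1 CPM. The C1q-low Lyz2 cells held 61.6 and 270 CPM, so in both libraries their Ccl24 CPM was higher than that of the members. The ratio lay below 0 in all 4 member bins, and it was -1.61 without members holding 3 or more UMIs of other cell types.

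Mgl2 (chr11:70130125-70137542), a galactose-type lectin gene, gave the lowest ratio of the genes ranked, which leave out those with a high level in presumed tumour cells relative to members, such as Col3a1 and Sparc. It was at 30.7 CPM in serine/glycine-free members, from 43 UMIs, and at 102 CPM in control members, from 353 UMIs, a log2 ratio of -1.74 (-2.23 to -1.28). It was lower in all 7 MHC-II bins, and in MHC-II-high cells it stood at 62.5 and 132 CPM. C1q-low Lyz2 cells had 49.4 CPM in the serine/glycine-free and 50.3 CPM in the control library. Its neighbour Clec10a (chr11:70166623-70170836), the other mouse gene of that lectin, ran the other way at 59.98 and 35.6 CPM, a log2 ratio of 0.75 (0.33 to 1.16). The end of Clec10a shares 21.8% of its 31-base words with Mgl2 and Mgl2 shares 14.5% with Clec10a, so reads in the shared stretches may have been lost or split.

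The other 2 resident-type genes past the limit were scarce. Vsig4, a complement receptor gene, was at 41.4 CPM in serine/glycine-free members, from 58 UMIs in 11 cells, and at 20.8 CPM in control members, from 72 UMIs in 17 cells, a log2 ratio of 0.99 (0.47 to 1.51). The growth factor gene Igf1 was at 43.6 and 28.7 CPM, a log2 ratio of 0.60 (0.12 to 1.08). Vsig4 was higher in 4 of 7 MHC-II bins and Igf1 in 7 of 7. Over all C1q macrophages Clec10a, Vsig4 and Igf1 had log2 ratios of 0.48, -0.03 and 0.40, all inside the limit. Pf4 was at 810 and 1163 CPM, a log2 ratio of -0.52 inside the limit, with Pf4 detected in 54.4% of serine/glycine-free and 67.3% of control members at 2000 UMIs. Lyve1 had a log2 ratio of -0.12, Folr2 0.02, Cd163 0.02 and F13a1 0.23. Cd163 in MHC-II-high cells stood at 45.5 and 16.4 CPM, a log2 ratio of 1.47.

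**Figure D4:**
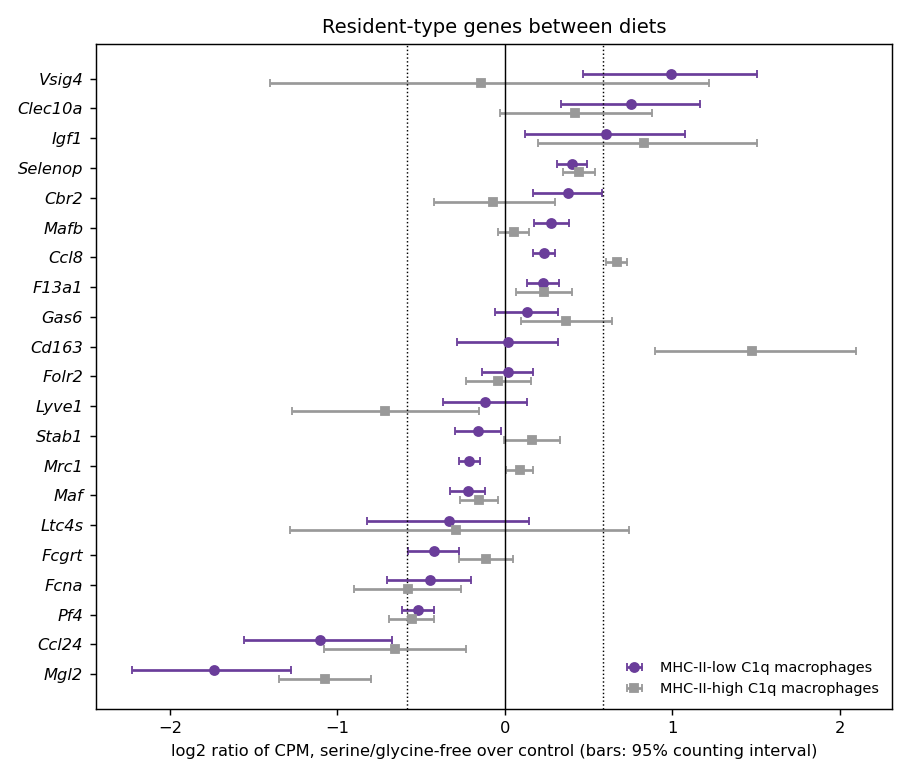
Log2 ratio of CPM, serine/glycine-free over control (horizontal axis), for the 21 resident-type genes tested, in MHC-II-low members (purple circles) and MHC-II-high cells (grey squares). Bars are 95% counting intervals and dotted lines mark 1.5-fold. Mgl2 and Ccl24 lie below the lower line in members, and Vsig4, Clec10a and Igf1 above the upper one.

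Among the 1016 genes ranked for the diet comparison, 29 were at least 1.5 times higher and 31 at least 1.5 times lower under the serine/glycine-free diet. Hmox1 (chr8:75093618-75100593), which encodes the heme-degrading enzyme heme oxygenase 1, was at 1025 CPM in serine/glycine-free members, from 1436 UMIs, and at 434 CPM in control members, from 1498 UMIs, a log2 ratio of 1.24 (1.14 to 1.35). It was higher in all 7 MHC-II bins, with log2 ratios between 0.95 and 4.17. MHC-II-high cells had 329 and 126 CPM and C1q-low Lyz2 cells 295 and 199 CPM. Hmox1 was also higher in members with Lyve1 RNA, at 2569 and 1028 CPM, than in those without, at 747 and 316 CPM. At 2000 UMIs it was detected in 38.5% of serine/glycine-free and 27.1% of control members, against 2.11% and 2.09% of T cells.

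Of 11 iron and heme genes 9 were tested, 1 (Hmox1) was higher, 0 lower, and the list median was 0.30. Among all genes tested 2.2% were higher. The ferritin heavy chain gene Fth1 was at 23023 CPM in serine/glycine-free and 15405 CPM in control members, a log2 ratio of 0.58 just under the limit. Erythroid marker RNA was at 54.98 and 10.7 CPM, with 68 UMIs in 1 serine/glycine-free cell, and its part in these values was not tested.

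Cd36, a fatty acid and lipoprotein receptor gene, was at 114 CPM in serine/glycine-free members, from 159 UMIs, and at 28.4 CPM in control members, from 98 UMIs, a log2 ratio with an interval of 1.63 to 2.38. It was found in 72 of 356 and 53 of 625 members. MHC-II-high cells had 68.2 and 45.7 CPM, a log2 ratio of 0.58, and the members' log2 ratio exceeded theirs by 1.42 (0.91 to 1.94). Fabp5, a fatty acid binding protein gene, was at 544 and 347 CPM, a log2 ratio of 0.65. Of 15 lipid handling genes tested 2 were higher and 0 lower, while 2.2% of all genes tested were higher. The list median was 0.29. Within MHC-II bins the list's summed level was higher under the serine/glycine-free diet in 1 bin and lower in 6. Apoe, a gene of this list, weighed heavily in that sum. In the lowest bin it held 10577 of 20162 CPM in the serine/glycine-free library and 13073 of 21111 CPM in the control library. Its log2 ratio in members was -0.25, and it was lower under the serine/glycine-free diet in 7 of 7 bins. The median of the single genes' log2 ratios was above 0 in 7 of 7 bins.

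The remaining leading genes were of several kinds. Fgl2, an interferon-induced gene of macrophages and T cells, was at 202 CPM in serine/glycine-free and 102 CPM in control members, and Acod1, which makes itaconate, at 85.0 and 43.7 CPM. Atp1b3, a sodium pump subunit gene, was at 683 and 356 CPM and higher in all 7 bins. Lyz1 was at 69.3 and 31.9 CPM and shares sequence with Lyz2. The granzyme genes Gzmd and Gzma had log2 ratios of 5.48 and 2.08. Of their serine/glycine-free UMIs, 141 of 145 and 81 of 86 came from 1 cell each. Without the member with most UMIs of the gene in each library, the log2 ratios were 0.50 and -0.89. These 2 high ratios therefore rest on single cells and do not describe the members.

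The other lowest genes were of several kinds. Fcrls, a gene of resident macrophages and microglia in mice, was at 54.98 CPM in serine/glycine-free and 147 CPM in control members, a log2 ratio of -1.42 (-1.78 to -1.07). Plxdc2, a receptor gene, was at 53.6 and 135 CPM, and Cxcl14, a chemokine gene, at 31.4 and 63.1 CPM. Fcrls, Plxdc2 and Cxcl14 were lower in all 7 bins. G530011O06Rik, St18, Lsamp and Gm17268 had log2 ratios of -1.62, -1.05, -1.13 and -1.10. AY036118, at -1.47, shares all of its 31-base words with another transcript and is uncertain.

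All 14 hypoxia genes tested had log2 ratios above 0 in the members. Of these 14, 7 were at least 1.5 times higher and 0 lower, and the median log2 ratio was 0.59, while 2.2% of all genes tested were higher. Of the other listed genes, Adm, Egln3, Pdk1, Ddit4 and P4ha2 were below the UMI limit and Ca9 was not matched by symbol. Ankrd37, a target of hypoxia-inducible factors, was at 68.6 CPM in serine/glycine-free and 28.7 CPM in control members, a log2 ratio of 1.26 (0.84 to 1.68). Pfkfb3, a driver of glycolysis, was at 101 and 46.6 CPM, and Ndrg1, a stress-induced gene, at 287 and 136 CPM. Their log2 ratios were 1.12 and 1.08. Bnip3, which acts in removing mitochondria, was at 159 and 88.0 CPM, and the glucose transporter gene Slc2a1 at 112 and 63.4 CPM. Ero1l, an oxidase of the endoplasmic reticulum, was at 111 and 64.9 CPM and Egln1, an oxygen sensor, at 118 and 70.9 CPM. In MHC-II-high cells the list median was 0.20 and in presumed tumour cells 0.52.

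Since the tumour genes Hmga2 and Rhox5 were capped by the rule, the part of tumour RNA in these ratios was not tested. With each cell weighted equally 12 of 14 hypoxia genes lay above 0. Over all C1q macrophages, without the MHC-II limit, the list median was 0.34 and 4 genes were higher. The C1q-low Lyz2 cells had 48.01 CPM of Ankrd37 in the serine/glycine-free library and 58.5 CPM in the control library, and 333 and 295 CPM of Ndrg1. For Pfkfb3, Ndrg1, Slc2a1 and Egln1 the members' log2 ratio exceeded that of MHC-II-high cells by 0.91, 0.57, 0.57 and 0.55. For the higher genes Ankrd37, Bnip3 and Ero1l this difference is not given here, and none of the differences was tested. Glycolysis genes lay the same way, with 15 tested, 4 higher, 0 lower and a median of 0.49. Among all genes tested 2.2% were higher. Over all C1q macrophages the glycolysis median was 0.26 with 0 higher, so these 4 calls were lost. Aldoa was at 1168 and 754 CPM, Pgk1 at 882 and 575 CPM and the lactate exporter gene Slc16a3 at 80.7 and 51.5 CPM. The other higher glycolysis gene was Slc2a1, which is also counted in the hypoxia list, so the 2 lists are not separate. Pgk1 shares 43.6% of its 31-base words with other transcripts.

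The starts of the hypoxia genes are shown because hypoxia-inducible factors bind the letters ACGTG. The 200 bases before each RefSeq start (GRCm38.p6, printed 5′ to 3′ on the gene's strand) are in lower case, with ACGTG and its reverse complement CACGT in capitals; where both overlap they read CACGTG. The windows are chr8:45999851-46000050 (minus strand) for Ankrd37, chr7:138909507-138909706 (minus) for Bnip3, chr8:124949255-124949454 (minus) for Egln1, chr2:11553930-11554129 and chr2:11502091-11502290 (minus) for 2 starts of Pfkfb3, and chr4:119108545-119108744 (plus) for Slc2a1.
Ankrd37: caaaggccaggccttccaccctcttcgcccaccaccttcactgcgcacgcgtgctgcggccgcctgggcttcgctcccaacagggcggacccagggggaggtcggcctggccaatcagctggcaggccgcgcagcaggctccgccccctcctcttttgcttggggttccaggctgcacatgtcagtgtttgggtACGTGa
Bnip3: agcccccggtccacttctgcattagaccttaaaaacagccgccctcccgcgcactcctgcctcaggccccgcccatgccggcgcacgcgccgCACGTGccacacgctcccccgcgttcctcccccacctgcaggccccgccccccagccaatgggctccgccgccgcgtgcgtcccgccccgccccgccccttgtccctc
Egln1: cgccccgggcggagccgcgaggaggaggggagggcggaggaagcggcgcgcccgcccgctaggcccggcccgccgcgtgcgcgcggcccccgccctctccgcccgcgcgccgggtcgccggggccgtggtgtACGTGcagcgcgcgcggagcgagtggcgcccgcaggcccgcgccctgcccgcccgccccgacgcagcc
Pfkfb3 first start: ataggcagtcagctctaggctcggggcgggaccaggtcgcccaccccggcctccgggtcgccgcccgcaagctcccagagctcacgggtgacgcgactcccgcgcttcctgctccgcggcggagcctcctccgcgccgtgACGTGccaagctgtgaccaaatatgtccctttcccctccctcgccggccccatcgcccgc
Pfkfb3 second start: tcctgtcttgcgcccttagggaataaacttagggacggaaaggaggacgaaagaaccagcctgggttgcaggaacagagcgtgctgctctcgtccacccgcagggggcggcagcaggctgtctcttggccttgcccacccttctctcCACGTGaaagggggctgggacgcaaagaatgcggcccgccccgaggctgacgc
Slc2a1: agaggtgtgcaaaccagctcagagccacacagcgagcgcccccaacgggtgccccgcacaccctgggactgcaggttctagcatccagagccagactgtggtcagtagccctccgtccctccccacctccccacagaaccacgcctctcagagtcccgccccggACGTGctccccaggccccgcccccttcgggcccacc
Of the 7 hypoxia genes that were higher, the 5 with a window in the table all held the letters, and of 11 tested hypoxia genes with a window 7 did. Anln and P4ha1 held them with log2 ratios of 0.08 and 0.09. Among all genes with a window 4231 of 27025 (15.7%) held them on either strand. A gene counted when any of its starts held them, and no other letters were searched. The hypoxia list was chosen for hypoxia-induced genes, so a share above that of all genes could come from the choice alone. These shares therefore say nothing about the diet ratios. A match describes letters and not a bound site, and Ndrg1, Ero1l and Bnip3l were not matched in the table.

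The 2 interferon lists are given side by side, and the difference between them was not tested. Of 25 interferon-gamma genes tested 3 were higher, 0 lower, with a median of 0.19, against 0.48 in MHC-II-high cells, while 2.2% of all genes tested were higher. Over all C1q macrophages 11 were higher. The 3 were Fgl2, the immunity-related GTPase gene Irgm1 at 87.1 and 56.8 CPM, and Cd274. Cd274 encodes the checkpoint ligand PD-L1 named in the study's title, and was at 186 CPM in serine/glycine-free and 117 CPM in control members, a log2 ratio of 0.68 (0.45 to 0.90), with 241 and 173 CPM in MHC-II-high cells. Of 25 type I interferon genes 0 were higher and 2 lower, with a median of -0.17, while 3.66% of all genes tested were lower. With each cell weighted equally 1 was lower, and over all C1q macrophages 0 were. The 2 were Isg15, a ubiquitin-like protein gene, at 58.6 and 91.5 CPM, and Ifit2, an antiviral gene, at 35.7 and 55.9 CPM.

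Chemokine genes in the members gave 1 higher and 3 lower of 17 tested. Among all genes tested 2.2% were higher and 3.66% lower. Cxcl13, a B cell attractant, had 105 UMIs in 6 serine/glycine-free members (74.98 CPM) and 0 UMIs in control members. Against a floor of 3 UMIs in the control members it was at least 86.3-fold higher, but 52 of its UMIs came from 1 cell. Genes past 1.5-fold in opposite directions in members and MHC-II-high cells were 4 of 6060 (0.066%). Ccl12, a Ccr2 ligand of mice, was at 1028 CPM in serine/glycine-free and 1612 CPM in control members, a log2 ratio of -0.65. The third lower one beside Ccl24 was Cxcl14. Among chemokine receptors Ccr2 was at 89.97 and 144 CPM and Cx3cr1 at 49.98 and 89.5 CPM, both lower, in 8 tested genes with 0 higher. Over all C1q macrophages 0 of the 8 were lower.

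**Figure D5:**
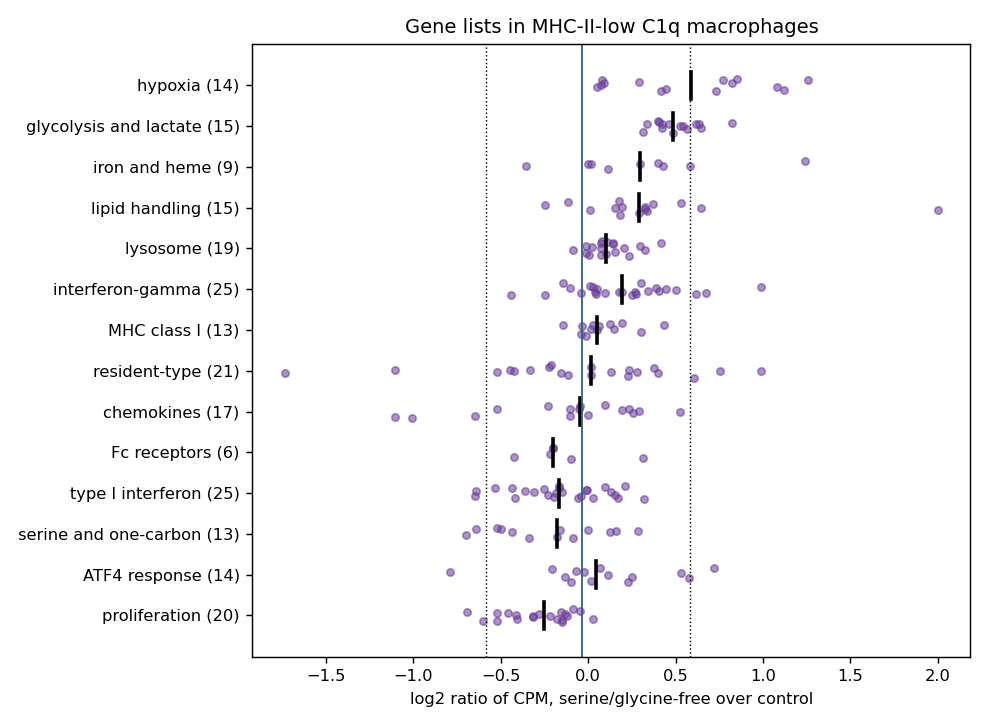
Log2 ratio of CPM, serine/glycine-free over control (horizontal axis), in MHC-II-low members for the genes of 14 lists, with the number tested in brackets. Points are genes, black bars list medians, the blue line the median of all genes tested (-0.03) and dotted lines 1.5-fold. Cxcl13, at 0 in control members, is not drawn. All 14 hypoxia and all 15 glycolysis genes lie above 0 at this scaling, while 12 of the 14 do with each cell weighted equally.

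Most genes of division and of serine use were inside the 1.5-fold limit. Of 20 proliferation genes 2 were lower and 0 higher, Rrm2 at 40.7 CPM in serine/glycine-free and 65.7 CPM in control members and Cdk1 at 76.4 and 116 CPM, while 3.66% of all genes tested were lower. With each cell weighted equally, and over all C1q macrophages, 0 of the 20 were lower. Of the log2 ratios in members, 19 lay below 0 and 1 above, and over all C1q macrophages 16 lay below 0 and 4 above. Within MHC-II bins their summed level was higher under the serine/glycine-free diet in 3 bins and lower in 4. The median was -0.25, against 0.13 in MHC-II-high cells, and all 20 together summed to 1482 and 1805 CPM in members. Of 13 serine and one-carbon genes tested 2 were lower, the glutamine and neutral amino acid carrier gene Slc1a5 at 16.4 and 26.6 CPM and the methionine synthase gene Mtr at 29.3 and 45.8 CPM, with a median of -0.18. Over all C1q macrophages 0 of these 13 were lower. Phgdh, the first enzyme of serine synthesis, had 25 and 56 UMIs and stayed below the limit. Of 14 genes of the amino acid stress factor ATF4 1 was higher (Slc7a11) and 1 lower (Nupr1), with a median of 0.04. Slc7a11 was inside the limit over all C1q macrophages, at a log2 ratio of 0.50.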

How the data were processed

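The deposited values are raw UMI counts of 32285 genes in each barcode. The authors used Cell Ranger, given as 7.0.1 per the file headers and as 2.2.2 per the submitters' processing notes, with mm10 as the build. Whether intronic reads entered the counts, and which gene annotation was used, was not stated in the labels or headers. The libraries held 20662 (serine/glycine-free) and 14774 (control) barcodes and 173592046 and 173785388 UMIs, and the filters kept 20312 and 14159 cells with medians of 7570 and 11512 UMIs.

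Members were chosen by UMI limits alone, with no clustering. Scrublet in scanpy 1.11.5 called 5.28% and 3.78% of kept cells doublets. These were kept in the main values and left out in an alternative. For each library, UMIs were added up within a class and scaled to CPM. Ratios are serine/glycine-free over control, with exact conditional 95% intervals, and shares carry exact Clopper-Pearson 95% intervals, or a floor of 3 cells where the count is 0. A gene was tested with at least 100 UMIs over the members of both libraries and counted as higher or lower from 1.5-fold. Such a count is a description, since cells are not replicates and 1 library a diet allows no test. PCR copies were collapsed by UMI, and the intervals cover counting error only, not the spread between mice. The computation of ratios and intervals was checked on simulated data. Python 3.11.15, numpy 2.4.6, scipy 1.17.1, pandas 2.3.3, anndata 0.12.19 and matplotlib 3.10.9 were used.

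The members, gene lists and rule for named genes were chosen with earlier results of these data known. Named were the marker genes, the 10 highest and 10 lowest diet ratios among genes with at least 50 CPM in 1 library (without the genes of the gate and mitochondrial, ribosomal, immunoglobulin and tumour-level genes), all resident-type genes, up to 4 genes of each other list by absolute log2 diet ratio, the 8 highest and 8 lowest in members over MHC-II-high cells, and the 5 genes most like Mrc1. Other list genes were named after their values were seen. Alternatives changed the MHC-II limit, cell filters, scaling, weighting, UMI limits and tumour RNA, whose subtraction rests on genes capped by the gate. Sharing of 31-base words over the last 600 bases of transcripts marks genes whose reads may be split, such as Bnip3 (24.2%), Gzmd (39.1%), H2-DMb1 (37.0%) and Lyz1 (32.6%). Promoter windows and gene positions came from RefSeq tables (GRCm38.p6), and no per-sample column was left unused.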

Additional observations from a re-analysis of the deposited data

Results flagged for a closer look

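Diet ratios past 1.5-fold in opposite directions in members and in MHC-II-high cells were found for 4 of 6060 genes (0.066%). The difference was not tested, since each diet has 1 library. Col3a1, a collagen gene of fibroblasts, had a log2 ratio of -3.76 in members and 2.50 in MHC-II-high cells, and 319 of its 334 UMIs in control members came from 1 cell. Sparc, a matrix protein gene, had -2.64 in members and 3.10 in MHC-II-high cells, with 295 of 339 control UMIs in 1 cell. Col1a2, another collagen gene, had -1.22 and 1.91, with 251 of 311 control UMIs in 1 cell. Without the member with most UMIs in each library, the members' log2 ratios were 0.56 for Col3a1, 0.16 for Sparc and 1.01 for Col1a2. S100a9, a neutrophil gene, had 0.82 in members and -0.99 in MHC-II-high cells, from 66 UMIs in 8 serine/glycine-free and 92 UMIs in 7 control members.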

How the results depend on the processing

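With 1 library a diet no replicate could be left out. No paired analysis was possible because the labels give no replicate numbers and each diet has 1 library. Over the members as a whole, the shares and the ratios of Mrc1, Ccl8 and Ccl24 kept their direction under the alternatives run. Within the 7 MHC-II bins Mrc1 was higher in 3 and lower in 4, Ccl8 higher in 6 and lower in 1, and Ccl24 higher in 1 and lower in 6. The log2 ratio of the members' share among C1q macrophages was -1.20, and moved to -1.48 with an MHC-II limit of 10 and -0.95 with a limit of 40. Among kept cells it was -1.33, and moved to -1.61 and -1.08. The 6 other alternatives left each of the 2 shares within its interval. Mrc1 moved from -0.21 to -0.30 with a limit of 40 and to -0.42 without the limit. Ccl8 moved from 0.23 to 0.11 with at least 2000 UMIs a cell, to 0.43 with each cell weighted equally and to 0.51 without the limit. Ccl24 moved from -1.10 to -1.61 without members holding 3 or more UMIs of other cell types. The 367 genes past 1.5-fold between diets (138 higher) became 152 (70 higher) with 10 CPM added, 1149 (437 higher) of 9316 with at least 30 UMIs and 86 (43 higher) of 2809 with at least 300 UMIs. The share called higher was 37.6%, and was 54.2% over all C1q macrophages. The 180 genes past 1.5-fold between members and MHC-II-high cells became 363 with at least 30 UMIs. The settings without the MHC-II limit, without members holding other types' RNA, without the top cell for genes other than Mrc1, Ccl8 and Ccl24, and within MHC-II bins were chosen after seeing the data. For moves other than those of UMI and CPM limits the cause was not tested. Without the top cell in each library, 9 of 136 named genes moved over 1.5 times or changed direction: Col1a1, Col1a2, Col3a1, Cp, Folr2, Gzma, Gzmd, S100a9 and Sparc.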

Other observations

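Most genes of the groups not described above lay inside the 1.5-fold limit between the diets in the members. Among all genes tested 2.2% were higher and 3.66% lower. Of 19 lysosome genes tested 0 were higher and 0 lower, with a median log2 ratio of 0.10, and the protease gene Ctsl was at 2309 CPM in serine/glycine-free and 1733 CPM in control members. Of 17 inflammatory genes 2 were higher: Saa3, an acute phase gene, at 49.98 and 18.8 CPM, and Tnfaip3, an inhibitor of NF-kappaB signalling, at 70.7 and 40.3 CPM. All 6 Fc receptor genes were inside the limit, with a median of -0.20. Of 13 MHC class I genes 0 were past it, with a median of 0.05. Arg1, an enzyme of alternatively activated macrophages, was at 1193 and 826 CPM. Mmp9, a matrix protease gene, was at 7.14 and 29.8 CPM, from 10 and 103 UMIs. Of 10 monocyte genes 2 were higher and 1 lower, and of 9 complement genes other than C1q 1 (Vsig4) was higher and 0 lower.

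Within bins of MHC-II level, the summed UMIs of the lysosome, iron and heme, hypoxia and glycolysis lists were each higher under the serine/glycine-free diet in 7 of 7 bins, and those of the serine and one-carbon, chemokine receptor and Fc receptor lists were lower in 7 of 7. Bins of 1 list share the libraries and are not independent, and the hypoxia and glycolysis lists both hold Slc2a1.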
